A study of Mus musculus with 24 samples.

Results

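The libraries described here are those of mouse CD8+ T cells cultured for 9 days with both dexamethasone and the cytokine IL27 (Dex+IL27) and those of cells cultured for the same time with neither (Ctrl). They were chosen by their treatment and time labels, and they are 6 of the 24 libraries of the series, 3 per group. All cells were labelled C57BL/6 and, at day 9, wild type (WT). The series describes its wild type, for the day 3 cultures, as mice with a floxed glucocorticoid receptor gene and no E8i-Cre, a Cre driven in CD8+ T cells. Whether the day 9 cells came from the same mice is not given in the sources used here, nor is an age. Naive CD8+ CD44-negative cells were sorted from spleen and lymph nodes, stimulated for 3 days with plate-bound CD3 and CD28 antibodies (1 µg/ml each), rested for 3 days in IL2 at 5 ng/ml and restimulated for 3 days. Dex+IL27 cultures received 10 nM dexamethasone with 25 ng/ml IL27 in both stimulation periods. Cultures with dexamethasone alone (Dex) or IL27 alone (IL27), 3 libraries each, are used where the effect of the pair is set beside that of 1 agent. Each library came from 1000 sorted cells, so all values are from cultured cells stimulated through antibodies and not from a tumour. Nothing in the labels ties replicates to separate mice or cultures, and the p-values measure only the spread between these libraries.

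Dexamethasone is a synthetic glucocorticoid. It binds the glucocorticoid receptor, encoded by Nr3c1, which is held by Hsp90 chaperones in the cytoplasm and moves to the nucleus to raise or repress transcription. IL27 signals through a receptor made of Il27ra and gp130 (Il6st) to STAT transcription factors, STAT3 among them, and in T cells it is known both for inducing IL10 and for raising inhibitory receptors. CD8+ T cells that are stimulated for long lose cytokine production and gain inhibitory receptors, a state called dysfunction or exhaustion. The comparison with Ctrl asks what the pair of signals does to CD8+ T cells, and the comparisons with each single agent ask what the pair does beyond it.

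The estimated counts summed to between 17090697 and 18377493 in the Ctrl libraries and between 17362022 and 18199000 in the Dex+IL27 libraries. Replicates correlated at 0.986 to 0.987 within Ctrl and at 0.980 to 0.983 within Dex+IL27 (Pearson, log2 CPM across genes). Rn45s, the ribosomal RNA precursor, took 16% ± 0.305 of the counts in Dex+IL27 and 9.11% ± 0.15 in Ctrl, beside 14.6% ± 0.487 and 14.1% ± 0.405 with Dex or IL27 alone (SD, 3 libraries each). Without it the number of genes that changed against Ctrl was 8235, against 8238 with it. Levels below are in CPM, the usual count unit scaled to library total, here with TMM factors (mean ± SD, n = 3), and changes are log2 fold changes ± SE of Dex+IL27 against Ctrl unless another group is named. A gene passed where the quasi-likelihood test of edgeR gave a Benjamini-Hochberg adjusted p under 0.05 over all 12320 genes tested.

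The CD8+ T cell label was checked against 12 markers, all of which were measured. Of these, 6 rose, 4 fell and 2 did not pass. Their summed level was 3600 to 3880 CPM in the Ctrl libraries and 3800 to 4420 CPM in the Dex+IL27 libraries. Cd8b1, the beta chain of the coreceptor, was at 250 ± 26.3 CPM in Ctrl and 238 ± 31.8 CPM in Dex+IL27 and did not pass. Cd3e, a chain of the T cell receptor complex, rose from 112 ± 0.361 to 221 ± 22.5 CPM, and Zap70, the kinase that acts next to the receptor, rose from 138 ± 2.14 to 263 ± 26.2 CPM. Lat, the adaptor next to that kinase, fell by 0.80 ± 0.10, and the surface proteins Cd2 and Thy1 fell by 0.31 ± 0.07 and 0.34 ± 0.07 on the log2 scale. Cd8a was at 350 ± 45.0 and 283 ± 32.8 CPM. Its adjusted p was 0.0277, the libraries of the groups overlapped, and the call was lost without Ctrl replicate 2 (adjusted p = 0.149), without Dex+IL27 replicate 1 (0.0674) and without Dex+IL27 replicate 2 (0.119).

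Markers of other cells included genes at 0 counts and genes with clear levels. Of 10 B cell markers, those at 0 counts in both groups included Ms4a1, Pax5 and Blk, and the summed level was 17.0 to 19 CPM in Ctrl and 25.4 to 26.6 CPM in Dex+IL27. Of the 3 that could be tested, Ebf1 (1.19 ± 0.18) and Cd22 (1.73 ± 0.63) rose and Cd79b fell by 0.47 ± 0.19. The call of Cd22 was lost without Ctrl replicates 1 or 3 or Dex+IL27 replicate 1 (edgeR adjusted p = 0.0587 to 0.0909), and that of Cd79b without Ctrl replicates 2 or 3 or Dex+IL27 replicates 2 or 3 (0.0586 to 0.103). Of 16 myeloid and dendritic cell markers 5 were at 0 counts in both groups, among them Emr1 (F4/80), Mpo and S100a8. The summed level of these 16 was 4.18 to 6.59 CPM in Ctrl and 25.2 to 28.8 CPM in Dex+IL27. Of the 5 tested, 3 rose, 0 fell and 2 did not pass. Among those that rose was Itgam, the integrin CD11b, which activated CD8+ T cells can also carry, from 0.188 ± 0.236 to 9.51 ± 1.68 CPM. Most of the sum in Dex+IL27 came from other members of the list. The 8 NK cell markers summed to 962 to 1210 CPM and 2960 to 4100 CPM, and the granzyme gene Gzma made up most of the second sum. The 6 markers of CD4+ and regulatory T cells summed to 193 to 209 CPM in Ctrl and 271 to 288 CPM in Dex+IL27, most of it Ctla4, which activated CD8+ T cells also express. Of the 5 tested, Ctla4 and Zbtb7b rose, Trat1 fell and 2 did not pass. Cd4 itself was at 0.399 ± 0.0687 and 1.25 ± 0.874 CPM (1.63 ± 0.71, edgeR adjusted p = 0.0537), and it passed without Dex+IL27 replicate 2 (0.00932), without the low-count filter (0.00943) and with DESeq2 (0.0376). Foxp3, the factor of regulatory T cells, was at 0.511 ± 0.648 and 0.019 ± 0.0329 CPM and was below the filter. Markers of gamma delta and NKT cells summed to 3.05 to 6.26 CPM and 3.90 to 5.65 CPM (1 of 2 tested rose, 0 fell), and those of red cells and platelets to 1.99 to 2.43 CPM and 2.07 to 3.80 CPM (2 of 3 tested rose, 1 fell). In bulk libraries, fewer cells of a type and less RNA per cell cannot be told apart, and the part of other cells in the results below was not tested.

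In Dex+IL27 against Ctrl, 8238 of 12320 genes passed the test, which is 66.9%. Of these, 4220 (34.3% of genes tested) were higher and 4018 (32.6%) were lower. At least a 2-fold rise was seen for 1921 of them and at least a 2-fold fall for 1577, and 564 rose and 365 fell at least 4-fold. The libraries of the 2 groups did not overlap for 8689 genes, or 70.5%. With most genes changed, a count of members of a pathway that passed is read beside these shares. The median over all genes was 0.05, and it was -0.07 where libraries were scaled by their totals only, with 3639 genes higher and 4591 lower.

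**Figure D1:**
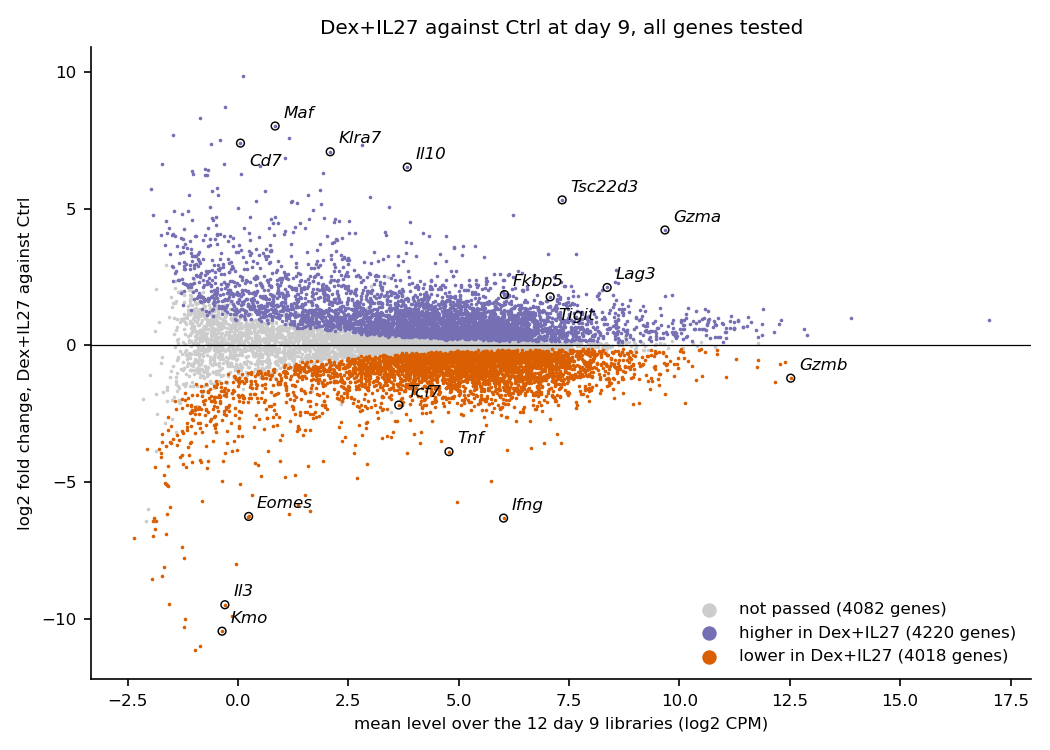
Each point is 1 of 12320 genes, with its mean level over the 12 day 9 libraries (log2 CPM) across and its log2 fold change in Dex+IL27 against Ctrl upward, coloured by direction where the adjusted p was under 0.05. Named genes are circled: Maf, Cd7, Klra7 and Il10 are high on the plot, and Kmo, Il3, Ifng and Eomes are low.

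The largest rises among genes of at least 10 CPM were in genes that were nearly silent in Ctrl, except for Tsc22d3 (20.0 ± 2.49 CPM there). Maf, the transcription factor c-Maf that drives Il10 in several T cell types, was at 0.0554, 0.113 and 0 CPM in the 3 Ctrl libraries and at 16.1, 16.7 and 15.2 CPM in the Dex+IL27 libraries. Its change was 8.02 ± 0.55 (edgeR adjusted p = 7.8e-09). The other 11 were 5031414D18Rik (7.59 ± 0.38), Cd7 (7.39 ± 1.37), Tgfb3 (7.33 ± 0.47), Klra7 (7.08 ± 0.44), Fxyd7 (6.84 ± 1.13), Il10 (6.52 ± 0.29), Stac2 (6.30 ± 0.40), Itga7 (5.69 ± 0.82), Kif1a (5.49 ± 0.71), Muc2 (5.43 ± 0.38) and Tsc22d3 (5.32 ± 0.12). They include secreted regulators of immunity (Il10, and Tgfb3 of the TGF-beta family), surface receptors (Cd7, an immunoglobulin superfamily receptor of T and NK cells, and Klra7, a Ly49 lectin receptor) and an integrin subunit (Itga7). The largest falls were in secreted factors and in enzymes. Ccl1, Il2 and Kmo, the latter an enzyme of tryptophan breakdown, had 902, 801 and 550 counts over the Ctrl libraries and 0 over the Dex+IL27 libraries. With the group's 3 Dex+IL27 libraries set to a floor of 3 counts in sum, scaled by library size, Ccl1 was at least 306-fold lower, Il2 at least 271-fold lower and Kmo at least 186-fold lower. Il3 had 1053 counts in Ctrl and 1 in Dex+IL27, a ratio of 1070 with an exact 95% counting interval of 192 to 42300. The others were Ugt1a6b and Ugt1a10, which share exons and whose reads may be split between them, Ifng, Lad1, Il1a, Igfbp2, Lif and Gzmd, with fitted changes from -8.01 ± 1.27 (Ugt1a6b) to -5.71 ± 0.82 (Gzmd).

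Sequence around the start of transcription is shown for the first 4, by p, of the fixed genes and of these 24 genes that held 1 of 3 motifs, so that a reader can see where the letters lie. The motifs were the glucocorticoid receptor palindrome (GNACANNNTGTNC), the STAT palindrome (TTCNNNGAA) and the core of the interferon-stimulated response element (GAAANNGAAA), searched on both strands. Windows are RefSeq promoters of build GRCm38.p6, from 250 bases before to 50 after a start, printed 5′ to 3′ on the strand of the gene with the matches in capitals. All capitals here are STAT palindromes.
Tsc22d3, chrX:140548522-140548821, minus strand: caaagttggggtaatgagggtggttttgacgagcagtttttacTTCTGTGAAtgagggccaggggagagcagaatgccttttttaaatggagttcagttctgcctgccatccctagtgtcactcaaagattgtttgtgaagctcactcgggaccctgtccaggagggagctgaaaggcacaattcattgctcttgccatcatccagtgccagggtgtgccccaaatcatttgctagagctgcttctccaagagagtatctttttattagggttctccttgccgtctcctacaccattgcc
Klra7, chr6:130231638-130231937, minus strand: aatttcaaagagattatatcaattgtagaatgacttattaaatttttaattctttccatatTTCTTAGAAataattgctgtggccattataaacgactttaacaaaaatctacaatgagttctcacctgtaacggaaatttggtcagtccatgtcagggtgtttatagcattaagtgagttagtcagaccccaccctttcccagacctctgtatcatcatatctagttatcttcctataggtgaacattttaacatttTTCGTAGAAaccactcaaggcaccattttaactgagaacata
Gzmb, chr14:56262285-56262584, minus strand: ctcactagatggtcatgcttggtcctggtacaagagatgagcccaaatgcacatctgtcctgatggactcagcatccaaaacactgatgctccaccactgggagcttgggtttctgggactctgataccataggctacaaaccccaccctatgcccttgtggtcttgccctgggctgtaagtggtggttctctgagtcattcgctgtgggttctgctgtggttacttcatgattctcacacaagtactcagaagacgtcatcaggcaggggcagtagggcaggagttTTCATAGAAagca
Ifng, chr10:118440796-118441095, plus strand: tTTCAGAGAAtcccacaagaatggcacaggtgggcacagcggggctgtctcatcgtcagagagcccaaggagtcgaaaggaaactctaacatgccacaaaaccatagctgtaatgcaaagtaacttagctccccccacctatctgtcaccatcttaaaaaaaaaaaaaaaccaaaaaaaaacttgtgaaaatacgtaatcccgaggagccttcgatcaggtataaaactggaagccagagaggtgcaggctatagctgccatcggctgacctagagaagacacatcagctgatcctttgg

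The match begins 207 bases before the start in Tsc22d3, 249 before it in Ifng, 37 after it in Gzmb, and 189 before and 8 after it in Klra7. These 4 genes went both ways: Tsc22d3 and Klra7 rose while Gzmb and Ifng fell. Of 43 genes searched, 30 had a window, and the STAT palindrome was in windows of 5 of them, the response element core in 2 and the receptor palindrome in 0. Windows on 1 chromosome were left out of these counts and of the choice of the 4 genes shown. A gene counted without a window may therefore have had 1 there. Among all 27025 genes with a window, that chromosome included, 9.55% held the STAT palindrome in at least 1 window, 3.99% the response element core and 0.537% the receptor palindrome. A match is a description of these letters, not of a bound site.

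Genes of the glucocorticoid response were higher as a group. Of 25 tested, 20 rose, 0 fell and 5 did not pass, with a median of 1.66 beside 0.05 over all genes. Tsc22d3, the gene of the leucine zipper protein GILZ, was at 22.2, 17.3 and 20.4 CPM in Ctrl and at 766, 819 and 803 CPM in Dex+IL27 (5.32 ± 0.12, edgeR adjusted p = 7.1e-13). No library of 1 group came near the other. Fkbp5, a co-chaperone that restrains the receptor, was at 35.1, 36.4 and 33.5 CPM in Ctrl and at 127, 122 and 131 CPM in Dex+IL27 (1.86 ± 0.10). Pik3ip1, an inhibitor of PI3 kinase, rose from 10.2 ± 0.859 to 280 ± 19.6 CPM, and Il7r, the receptor for the survival cytokine IL7, from 136 ± 6.26 to 514 ± 90.1 CPM. The metallothioneins Mt1 (1.38 ± 0.15) and Mt2 (1.85 ± 0.18), the clock gene Per1 (1.60 ± 0.12), the kinase Sgk1 (1.66 ± 0.16), the transcription factor Klf9 (2.25 ± 0.21) and the mTOR inhibitor Ddit4 (2.06 ± 0.14) also rose. Dusp1, a phosphatase of MAP kinases and a common glucocorticoid target, was at 6.88 ± 0.779 and 8.29 ± 2.07 CPM and did not pass.

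The receptor gene rose, and most of the chaperone genes of its list were lower. Nr3c1 was at 14.5, 15.8 and 15.3 CPM in Ctrl and at 33.7, 28.3 and 30.1 CPM in Dex+IL27 (1.02 ± 0.09, edgeR adjusted p = 1.7e-07), with every Dex+IL27 library above every Ctrl library. Of 17 tested genes of the receptor complex, its chaperones and coregulators, 6 rose, 9 fell and 2 did not pass, with a median of -0.40. Chaperones among those that fell were Hsp90aa1, from 1200 ± 21.2 to 268 ± 9.75 CPM, Hsp90ab1 by 0.54 ± 0.05, Hspa8 by 0.70 ± 0.04, and the co-chaperones Stip1 by 1.53 ± 0.11 and Fkbp4 by 1.68 ± 0.12 on the log2 scale. The co-chaperone Fkbp5 rose, as given above. The coactivator Ncoa1 (0.92 ± 0.12) and the corepressor Ncor1 (0.83 ± 0.08) rose.

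On the IL27 side, both receptor chains rose. Il27ra was at 52.4, 56.8 and 53.8 CPM in Ctrl and at 76.6, 75.0 and 81.5 CPM in Dex+IL27 (0.52 ± 0.09, edgeR adjusted p = 1.2e-04). Il6st, the shared gp130 chain, rose from 5.32 ± 0.9 to 11.3 ± 0.683 CPM, again without overlap. Stat3 rose by 0.56 ± 0.06, from 365 ± 19.4 to 537 ± 12.6 CPM.

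Inhibitors of cytokine signalling split. Socs3, which blocks gp130 signalling, rose from 45.2 ± 9.83 to 84.9 ± 4.93 CPM, and the phosphatase Ptpn2 rose by 0.65 ± 0.06. Socs1 fell by 0.93 ± 0.16, Socs2 by 1.57 ± 0.09 and Cish, a target of STAT5 that restrains T cell receptor signalling, by 1.19 ± 0.11 on the log2 scale. Of 23 genes of the pathway, 16 rose, 5 fell and 2 did not pass, with a median of 0.44. Irf1, an interferon-induced transcription factor, rose from 51.7 ± 5.33 to 137 ± 15.5 CPM.

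Interferon-stimulated genes were more often higher than lower. Of 46 tested, 24 rose, 5 fell and 17 did not pass, with a median of 0.41, so the share that changed was close to that of all genes. The guanylate-binding proteins Gbp2 (1.80 ± 0.12) and Gbp3 (1.10 ± 0.09), the ubiquitin ligase Dtx3l (1.23 ± 0.13), the peptide transporter Tap1 (0.90 ± 0.10) and Irf7 (1.21 ± 0.16) rose. The antiviral gene Oas1a (-1.87 ± 0.27), Usp18 (-0.85 ± 0.18), the immunity-related GTPase Iigp1 (-1.97 ± 0.45) and the transcription factor Irf8 (-0.71 ± 0.09) fell. Genes of antigen presentation by MHC class I gave 10 higher, 6 lower and 4 not passed of 20. H2-K1 and H2-D1, close relatives whose reads may be shared, rose by 0.88 ± 0.06 and 0.87 ± 0.05, and B2m, their light chain, by 0.60 ± 0.05. The chaperones that fold them, Calr (-1.66 ± 0.09) and Pdia3 (-0.68 ± 0.05), fell.

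Inhibitory receptors did not move as 1 block: of 22 tested, 9 rose, 6 fell and 7 did not pass, with a median of 0.28. The receptors most used to describe dysfunction rose. Lag3, a receptor for MHC class II and other ligands, was at 163, 136 and 141 CPM in Ctrl and at 607, 603 and 698 CPM in Dex+IL27 (2.11 ± 0.10, edgeR adjusted p = 5.6e-10). Tigit, which competes with CD226 for its ligands, was at 87.5, 75.7 and 82.6 CPM and at 304, 249 and 287 CPM (1.77 ± 0.08). For both genes the lowest Dex+IL27 library lay well above the highest Ctrl library. Pdcd1 (PD-1) was at 126, 112 and 116 CPM in Ctrl and at 193, 136 and 189 CPM in Dex+IL27 (0.55 ± 0.13, edgeR adjusted p = 0.00164). Havcr2 (TIM-3) was at 32.9, 40.1 and 19.6 CPM and at 61.1, 53.7 and 61.5 CPM (0.93 ± 0.20). The gap between the groups was narrow for Pdcd1 and Havcr2, though neither overlapped.

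The ectoenzymes Entpd1 (CD39) and Nt5e (CD73), which together turn extracellular ATP into adenosine, rose by 1.94 ± 0.12 and 1.25 ± 0.20. Ctla4 rose by 0.50 ± 0.07, and 4632428N05Rik, the gene of the checkpoint protein VISTA, by 1.11 ± 0.18. Other inhibitory receptors fell: Lilrb4 from 127 ± 6.20 to 41.6 ± 3.15 CPM, Btla from 36.3 ± 4.10 to 10.6 ± 1.13 CPM and Cd200, a ligand, from 288 ± 31.3 to 54.9 ± 3.10 CPM.

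**Figure D2:**
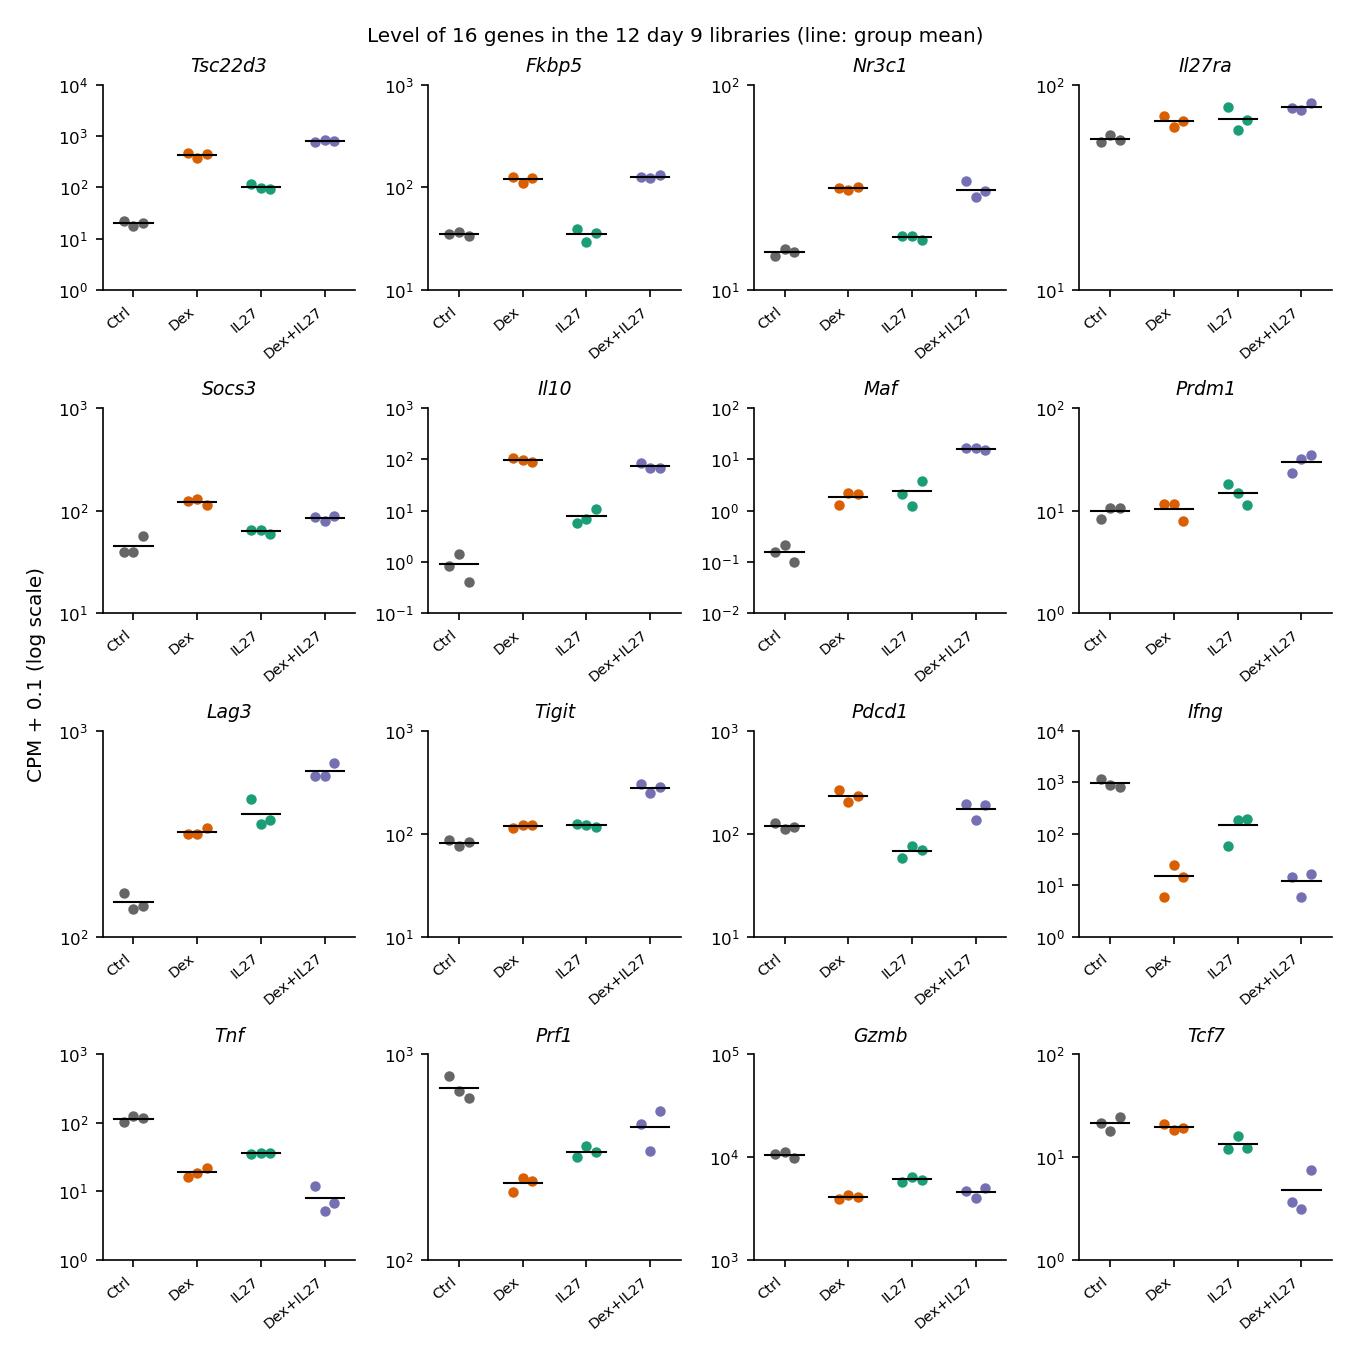
CPM plus 0.1 on a log scale for 16 genes in the 12 day 9 libraries, with 1 point per library and a line at the group mean. In Dex+IL27, Tsc22d3 (mean 796 CPM), Maf (16), Lag3 (636) and Tigit (280) lie above every library of the other groups, and Tcf7 (4.67) lies below them.

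Il10 was among the genes that rose. It was at 0.720, 1.36 and 0.313 CPM in Ctrl and at 85.6, 65.8 and 65.9 CPM in Dex+IL27 (6.52 ± 0.29, edgeR adjusted p = 2.5e-10). Prdm1, which encodes Blimp-1, a repressor that acts with c-Maf on inhibitory receptors and Il10, was at 8.09, 10.5 and 10.6 CPM and at 23, 31.4 and 34.3 CPM (1.60 ± 0.20). Nfil3, a factor needed for Il10 in some T cells, rose from 36.3 ± 8.29 to 164 ± 30.5 CPM. None of the 3 genes had overlapping groups. Of 13 genes tested in the list built around Il10, 5 rose, 4 fell and 4 did not pass, and its median was 0.05, or -0.08 with library totals only. Those that fell include Il24 (-3.56 ± 0.39), a cytokine of the IL10 family, and Lgals1 (-0.67 ± 0.05), a lectin.

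Transcription factors of effector and dysfunctional T cells went both ways (9 rose, 11 fell and 6 did not pass of 26). Eomes, a T-box factor of memory and exhausted CD8+ T cells, was at 10.5, 10.8 and 7.20 CPM in Ctrl and at 0.114, 0.0609 and 0.173 CPM in Dex+IL27 (-6.26 ± 0.67, edgeR adjusted p = 9.0e-07). Its relative Tbx21 (T-bet) was at 42.9, 52.8 and 71.2 CPM and at 76.8, 65.0 and 77.0 CPM, which overlapped. The change in Tbx21 was 0.39 ± 0.14 (edgeR adjusted p = 0.023), and the call was lost without Ctrl replicate 1 (0.122), Ctrl replicate 2 (0.075), Dex+IL27 replicate 1 (0.074) or Dex+IL27 replicate 3 (0.0722) and with library totals only (0.109). Runx3 (1.53 ± 0.12), Ikzf3 (1.22 ± 0.11), Zeb1 (1.11 ± 0.12) and Runx1 (2.54 ± 0.34) rose. Those that fell include Egr1 (-1.73 ± 0.15), Egr2 (-3.65 ± 0.39), Nr4a1 (-1.44 ± 0.21), Nr4a3 (-2.45 ± 0.41) and Irf4 (-1.25 ± 0.15), which are known to respond to T cell receptor signals. All of these but Egr1 were picked from the list after their values were seen.

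Naive and memory genes also divided, with 8 higher, 6 lower and 5 not passed of 19. Tcf7, which encodes TCF1, the factor that maintains stem-like and memory cells, was at 21.4, 17.9 and 24.6 CPM in Ctrl and at 3.59, 3.05 and 7.37 CPM in Dex+IL27 (-2.18 ± 0.25, edgeR adjusted p = 1.7e-06), with no overlap. Its partner Lef1 rose, by 0.94 ± 0.08, as did the chromatin organiser Satb1 (1.32 ± 0.09). Ccr7, the lymph node homing receptor, fell by 0.68 ± 0.14, Bcl2 by 0.87 ± 0.10 and Dapl1 by 4.98 ± 0.58 on the log2 scale.

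Cytokine genes fell. Of 19 tested, 3 rose, 14 fell and 2 did not pass, with a median of -3.89, which was the same with the 6 genes at 0 counts in Dex+IL27 set to their bounds. Ifng, which encodes interferon gamma, was at 1180, 907 and 831 CPM in Ctrl and at 14.3, 5.91 and 16.2 CPM in Dex+IL27 (-6.32 ± 0.53, edgeR adjusted p = 6.4e-08). Tnf was at 104, 126 and 116 CPM in Ctrl and at 11.8, 4.99 and 6.57 CPM (-3.89 ± 0.21). Lta, its neighbour in the same family, fell from 303 ± 7.53 to 21.3 ± 4.99 CPM. Each of these 3 genes was lower in every Dex+IL27 library than in any Ctrl library.

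Il22, Il13, Il17a, Il6 and Csf2, like Il2, were at 0 counts in Dex+IL27, from 402, 282, 147, 137 and 52 counts in Ctrl. Il22 was at least 136-fold lower and Csf2 at least 17.6-fold lower. Il22 was uneven in Ctrl, at 17.0, 1.30 and 3.76 CPM, and Csf2 did not pass with the Wald test of DESeq2 (adjusted p = 0.167). Lif and Osm, of the family of cytokines that signal through gp130, fell from 193 ± 30.0 to 3.62 ± 1.94 CPM and from 111 ± 4.56 to 17.8 ± 1.33 CPM. The 3 cytokines that rose were Il10, Tgfb3 (from 0.277 ± 0.153 to 45.0 ± 8.90 CPM) and Csf1, which was at 0.453 ± 0.0638 and 1.07 ± 0.232 CPM and lost its call without any 1 of Ctrl replicates 1, 2 and 3 or Dex+IL27 replicates 1 and 2 (adjusted p = 0.0668 to 0.105). Its call was also lost with the Wald test of DESeq2 (0.0653), with library totals only (0.0578) and without the low-count filter (0.121).

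Chemokines gave 1 higher and 6 lower of 7. Xcl1, which draws cross-presenting dendritic cells, fell from 396 ± 47.3 to 12.8 ± 2.29 CPM. The inflammatory chemokines Ccl3 and Ccl4 fell from 581 ± 53.7 to 43.2 ± 10.8 CPM and from 345 ± 31.1 to 74.3 ± 19.7 CPM. Ccl5, another inflammatory chemokine, went the other way. It was at 16.3, 5.99 and 7.52 CPM in Ctrl and at 132, 97.1 and 132 CPM in Dex+IL27 (3.60 ± 0.26, edgeR adjusted p = 1.2e-08).

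Genes of cytotoxic granules gave 9 higher, 7 lower and 4 not passed of 20, with a median of 0.15. Gzmb, the main granzyme of effector CD8+ T cells, was at 10800, 11100 and 9700 CPM in Ctrl and at 4720, 4000 and 5030 CPM in Dex+IL27 (-1.20 ± 0.07, edgeR adjusted p = 3.2e-09). Prf1 (perforin) was at 787, 660 and 614 CPM and at 459, 337 and 532 CPM (-0.63 ± 0.13, adjusted p = 6.0e-04). Both were lower in every Dex+IL27 library. Gzma rose instead, from 124, 217 and 72.3 CPM to 2580, 2070 and 3020 CPM (4.22 ± 0.34), and Ctsw, a protease of cytotoxic cells, rose by 2.35 ± 0.24. Gzmc fell by 2.44 ± 0.37, Gzmd by 5.71 ± 0.82, and Gzme, at 489 counts in Ctrl and 0 in Dex+IL27, was at least 166-fold lower. The genes from Gzmb to Gzme are close relatives, and reads may be split among them. Cst7, an inhibitor of the proteases that activate granzymes, rose by 1.30 ± 0.08, and Serpinb6b, a protease inhibitor, by 1.84 ± 0.13.

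Receptors known from NK cells gave 7 higher, 1 lower and 5 not passed of 13. Klra7 was at 0.166, 0.0565 and 0.365 CPM in Ctrl and at 32.6, 29.1 and 22.1 CPM in Dex+IL27, and Klra6 went from 0 to 339 counts over the group, at least 111-fold higher. These Ly49 genes are near-identical copies and their separate levels are uncertain. Klrc1 (NKG2A) rose from 81.8 ± 6.39 to 141 ± 3.54 CPM, and Klri2 fell by 1.65 ± 0.16. Chemokine receptors and adhesion molecules gave 13 higher, 4 lower and 3 not passed of 20, with a median of 0.98. Ccr2 (1.96 ± 0.32) and Cxcr6 (2.22 ± 0.58), which guide cells to inflamed tissue, Itga4 (1.09 ± 0.09) and Itgb7 (1.85 ± 0.21), which pair to an integrin of gut homing, and Plaur, the urokinase receptor (2.55 ± 0.15), rose. Cd44 fell from 342 ± 45.2 to 91.5 ± 3.00 CPM and Ccr4 from 34.9 ± 5.49 to 7.22 ± 0.718 CPM.

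Activation genes and members of the NF-kB pathway went both ways (10 higher, 12 lower and 8 not passed of 30). The costimulatory receptors Cd28 (1.71 ± 0.09), Icos (1.87 ± 0.11) and Tnfrsf18 (GITR, 0.79 ± 0.07) rose, as did the NF-kB inhibitor Tnfaip3 (1.37 ± 0.11) and the phosphatase Dusp2 (2.54 ± 0.32). The IL2 receptor chain Il2ra fell from 1510 ± 110 to 894 ± 81.5 CPM, Cd40lg from 9.59 ± 3.67 to 0.454 ± 0.255 CPM and Junb by 0.76 ± 0.10.

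**Figure D3:**
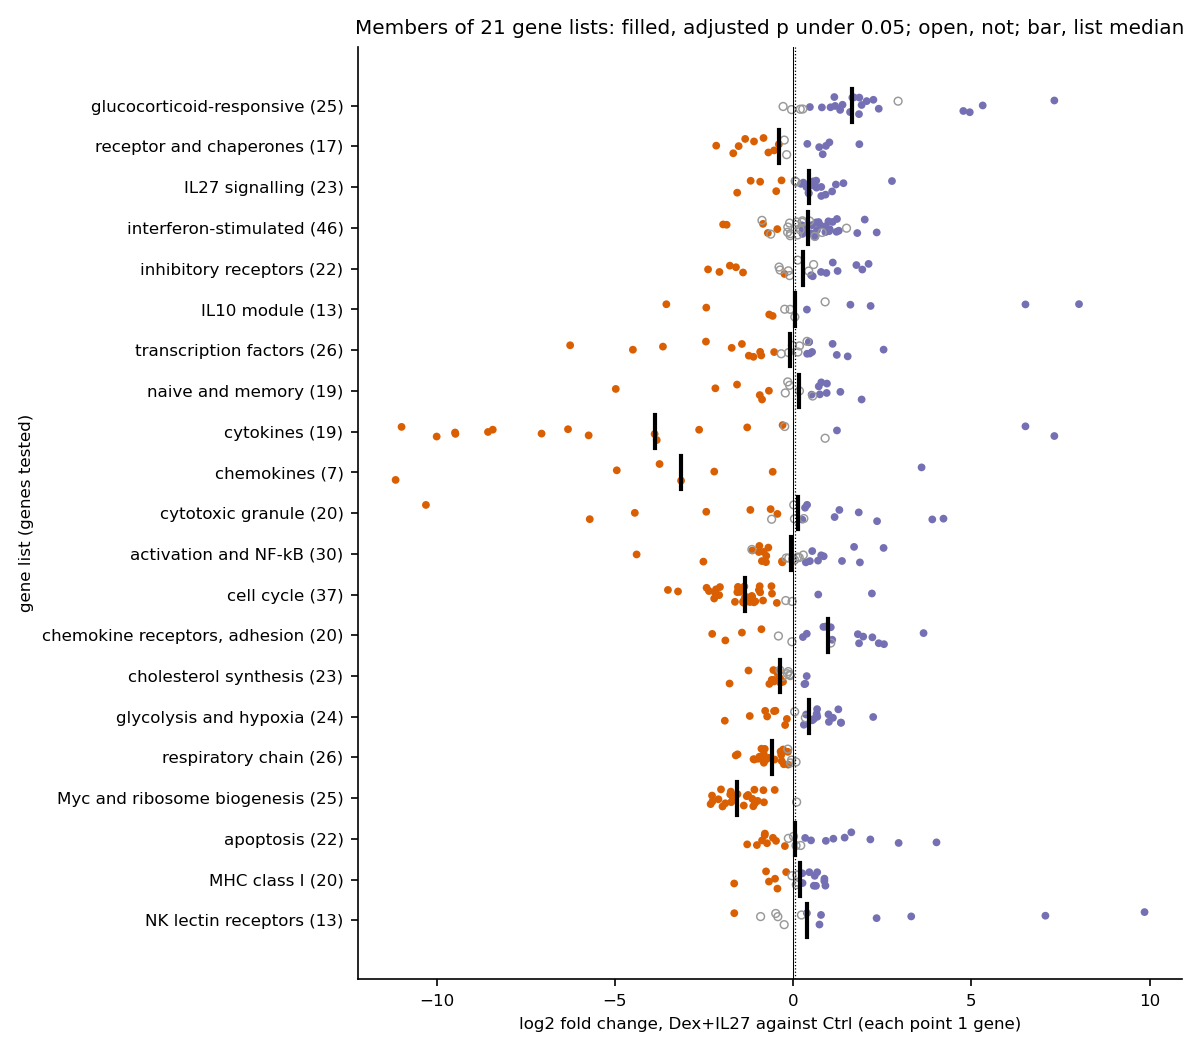
Members of 21 gene lists, each point 1 tested gene at its log2 fold change in Dex+IL27 against Ctrl, filled where the adjusted p was under 0.05, with a bar at the list median and a dotted line at the median of all genes (0.05). Glucocorticoid-responsive genes lie to the right (median 1.66), and cytokines (-3.89), Myc and ribosome biogenesis genes (-1.56) and cell cycle genes (-1.35) lie to the left.

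Cell cycle genes were lower nearly throughout. Of 37 tested, 33 fell, 2 rose and 2 did not pass, with a median of -1.35. Rrm2, a subunit of the enzyme that makes deoxynucleotides, was at 570, 593 and 548 CPM in Ctrl and at 54.4, 65.7 and 62.1 CPM in Dex+IL27 (-3.23 ± 0.09, edgeR adjusted p = 2.1e-12). Cdc6, which licenses replication origins, fell from 91.4 ± 4.49 to 7.99 ± 0.0975 CPM, and Mcm5 and Pcna, parts of the replication machinery, fell by 2.20 ± 0.08 and 2.17 ± 0.07. The fall in Mki67, a marker of cycling cells, was smaller, from 109 ± 3.32 to 57.1 ± 4.11 CPM. Cdkn1b, which encodes the cell cycle inhibitor p27, was 1 of the 2 genes that rose, from 8.75 ± 0.295 to 40.5 ± 3.01 CPM. The other was the inhibitor Cdkn2c (0.70 ± 0.26, adjusted p = 0.0271 with edgeR), whose call was lost without Ctrl replicate 3 (0.123), Dex+IL27 replicate 1 (0.0672) or Dex+IL27 replicate 3 (0.0775) and with library totals only (0.0572).

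Genes of growth fell with them. Of 25 tested genes of Myc and ribosome biogenesis, 0 rose, 24 fell and 1 did not pass, with a median of -1.56. Myc fell from 629 ± 20.2 to 284 ± 41.2 CPM, the nucleolar protein gene Nop56 from 507 ± 6.49 to 105 ± 6.33 CPM and Nolc1 from 284 ± 10.7 to 57.0 ± 4.35 CPM. Rn45s, the ribosomal RNA precursor, took a larger share of counts in Dex+IL27, and in Dex and IL27 alone, than in Ctrl (above). A link between that share and these genes was not tested. Of 26 genes of the respiratory chain, 0 rose, 22 fell and 4 did not pass (median -0.60), with Cycs, cytochrome c, at 469 ± 11.8 and 153 ± 4.89 CPM. Cholesterol synthesis gave 3 higher, 14 lower and 6 not passed of 23, and Idi1 fell by 1.79 ± 0.09.

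Glycolysis and hypoxia genes went both ways, with 14 higher, 8 lower and 2 not passed of 24. Aldoa rose from 2230 ± 16.6 to 5650 ± 296 CPM, Gpi1 from 820 ± 9.58 to 1970 ± 88.9 CPM and the oxygen-regulated hydroxylase Egln3 by 1.34 ± 0.18. Hk2, the first enzyme of the pathway, fell from 155 ± 14.6 to 40.9 ± 1.03 CPM and Ldha, which makes lactate, from 5000 ± 26.5 to 2900 ± 231 CPM. Among glucose transporters, Slc2a3 rose by 1.00 ± 0.22 and Slc2a1 fell by 1.22 ± 0.16.

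Apoptosis genes gave 9 higher, 9 lower and 4 not passed of 22, and the proapoptotic genes Bcl2l11 (Bim), Bbc3 (Puma) and Bmf were among those that rose. Bcl2l11, a known glucocorticoid target in lymphocytes, was at 1.33, 2.99 and 1.72 CPM in Ctrl and at 34.2, 30.1 and 33.8 CPM in Dex+IL27 (4.02 ± 0.38, edgeR adjusted p = 2.3e-07). Bbc3 rose from 1.26 ± 0.185 to 9.81 ± 2.04 CPM. The death receptor Fas (1.63 ± 0.09) and the survival genes Mcl1 (1.13 ± 0.08) and Birc2 (1.44 ± 0.08) rose as well.

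Next, Dex+IL27 was compared with each single agent. Against Dex, 3942 genes passed (32.0%), of which 1834 (14.9%) were higher and 2108 (17.1%) lower. With library totals only these were 1400 and 2647. Against IL27, 3212 genes passed (26.1%), 1445 (11.7%) higher and 1767 (14.3%) lower, or 1117 and 2212 with library totals only. Without IL27 replicate 3 the number higher than IL27 was 943. Genes higher in Dex+IL27 than in each of the other 3 groups numbered 731 (5.93%), and genes lower than in each numbered 1002 (8.13%). The first of these counts was 471 without IL27 replicate 3.

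Maf stood highest above all 3 groups: its mean was 1.75 CPM in Dex, 2.27 CPM in IL27 and 16 CPM in Dex+IL27, a difference of 3.19 ± 0.34 from Dex and 2.81 ± 0.33 from IL27. Bcl6, the repressor known from follicular helper T cells and memory CD8+ T cells, was at 0.507, 2.96, 4.85 and 16 CPM in Ctrl, Dex, IL27 and Dex+IL27. Ccl5 was at 13.8 CPM in Dex and 50.8 CPM in IL27, beside 120 CPM with both. The other 5 were Igsf5, Pde2a, which breaks down cyclic nucleotides, Cacna1s, a calcium channel subunit, Klra7, and Sytl2, which docks granules at the membrane. Pde2a lost its call against Dex without Dex+IL27 replicate 1, Dex replicate 2 or Dex replicate 3, and against IL27 without Dex+IL27 replicates 1 or 3 or IL27 replicates 2 or 3 (adjusted p = 0.0544 to 0.0968 with edgeR). The call against IL27 was also lost with DESeq2 (0.0613). Sytl2 lost its call against IL27 without Dex+IL27 replicate 3, IL27 replicate 2 or IL27 replicate 3 (0.0559 to 0.0654).

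The fixed genes Tsc22d3, Lag3, Tigit, Prdm1 and Stat3 were also above all 3 other groups, with the difference of Stat3 from IL27 small (0.20 ± 0.06) and lost without Dex+IL27 replicate 3 (adjusted p = 0.0613), without IL27 replicate 3 (0.0864), with library totals only (0.09) or with only the 2 groups compared (0.0626). Tsc22d3 was at 431 ± 48.8 CPM in Dex, 103 ± 12.7 CPM in IL27 and 796 ± 27.0 CPM in Dex+IL27 (0.88 ± 0.10 above Dex). Prdm1 was at 10.2 CPM in Dex and 14.7 CPM in IL27, and it was 1.53 ± 0.20 and 1.01 ± 0.20 higher with both. Tigit exceeded each single agent by similar amounts, 1.23 ± 0.08 over Dex and 1.21 ± 0.08 over IL27. Lag3 exceeded Dex by 0.98 ± 0.10 and IL27 by 0.68 ± 0.10. Pdcd1 was different, at 234 CPM in Dex, 68.5 CPM in IL27 and 173 CPM in Dex+IL27, above IL27 by 1.33 ± 0.13. It differed from Dex by -0.44 ± 0.13 (edgeR adjusted p = 0.0179), a call lost without Dex+IL27 replicate 2 (0.071) or Dex replicate 1 (0.0801).

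**Figure D4:**
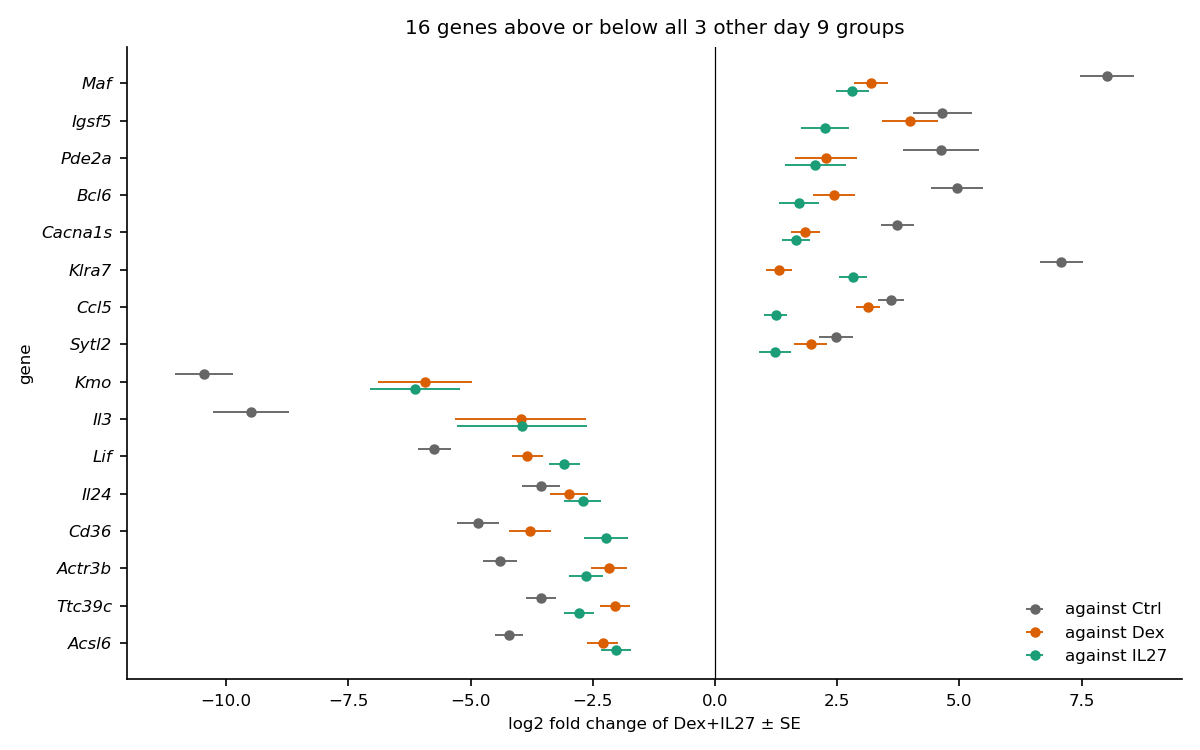
Log2 fold change ± SE of Dex+IL27 against Ctrl, Dex and IL27 for the 8 genes highest above and the 8 lowest below all 3 groups. Maf lies 8.02 above Ctrl, 3.19 above Dex and 2.81 above IL27, and the fitted values of Kmo and Il3 rest on 0 and 1 counts in Dex+IL27.

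The genes lowest beneath all 3 groups were Kmo, Il3, Lif, Il24, Cd36, Actr3b, Ttc39c and Acsl6. Il3 was under 1 CPM in Dex and IL27, and its calls there were lost without any 1 Dex+IL27 library, Dex replicates 2 or 3, or IL27 replicate 3 (edgeR adjusted p = 0.0619 to 0.234), and with all 24 libraries in 1 fit (0.0652 and 0.0698). Lif was at 51.9 CPM in Dex, 30.5 CPM in IL27 and 3.62 CPM in Dex+IL27. Cd36, a fatty acid transporter, was at 14.1, 4.79 and 1.01 CPM, and Acsl6, which activates fatty acids, at 4.15, 3.43 and 0.839 CPM. Tcf7 was also beneath all 3: its means were 19.3 CPM in Dex, 13.3 CPM in IL27 and 4.67 CPM in Dex+IL27, lower by 2.04 ± 0.25 and 1.5 ± 0.25. Tnf was lower than with Dex (-1.27 ± 0.22) and with IL27 (-2.19 ± 0.21), and so was Eomes (-3.44 ± 0.78 and -2.66 ± 0.83), though at under 2 CPM in all 3 groups. The call of Eomes against IL27 was lost without any 1 Dex+IL27 library or IL27 replicate 1 (edgeR adjusted p = 0.0556 to 0.104). Ifng was not shown to fall further than with Dex, at 14.8 CPM there and 12.1 CPM with both (-0.28 ± 0.51, edgeR adjusted p = 0.715).

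Among lists, cell cycle genes gave 1 higher and 30 lower of 37 against Dex, and 1 higher and 14 lower against IL27. Glucocorticoid-responsive genes gave 13 higher and 2 lower of 25 against Dex, and 17 higher and 0 lower against IL27. Interferon-stimulated genes gave 17 higher and 5 lower of 46 against Dex, and 28 higher and 1 lower against IL27. The negative regulators Socs2 and Cish, which were at 168 and 515 CPM in Dex, were at 39.7 and 203 CPM in Dex+IL27. Bcl2 was at 633 CPM in Dex, 409 CPM in IL27 and 167 CPM with both, below its Ctrl level of 305 CPM.

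The interaction term asks whether the change with both agents differs from the sum of the 2 single changes on the log2 scale. It passed for 3509 genes (28.5%), 1693 (13.7%) above the sum and 1816 (14.7%) below it, and at least 2-fold for 177 and 721 of them. Prf1 was at 687 CPM in Ctrl, 236 CPM in Dex, 335 CPM in IL27 and 443 CPM with both, with an interaction of 1.94 ± 0.19 (edgeR adjusted p = 7.6e-06). It was higher with both than with Dex (0.91 ± 0.13) or IL27 (0.40 ± 0.13, adjusted p = 0.0362), and the latter call was lost without Dex+IL27 replicate 1 or 3 or IL27 replicate 1 or 3 (edgeR adjusted p = 0.0764 to 0.19). It was lost as well with library totals only (0.0797), with only the 2 groups compared (0.0632) and in the 3 limma fits on FPKM (0.0648 to 0.155). Gzmb (0.95 ± 0.10) and Ifng (2.45 ± 0.66), which fell with each agent, fell less with both than the sum. Tigit (0.67 ± 0.11), Prdm1 (0.93 ± 0.29) and Tbx21 (1.00 ± 0.20) were above the sum too. For Prdm1 that call was lost without Ctrl replicates 2 or 3, Dex+IL27 replicates 2 or 3, Dex replicate 3 or IL27 replicate 3 (edgeR adjusted p = 0.0533 to 0.0674).

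Il10 was below the sum. It was at 0.796 CPM in Ctrl, 96.3 CPM in Dex, 7.59 CPM in IL27 and 72.5 CPM in Dex+IL27, where it did not differ from Dex beyond the test (-0.41 ± 0.18, edgeR adjusted p = 0.102), and the interaction was -3.68 ± 0.39. Il10 passed against Dex in edgeR with only the 2 groups compared (-0.41, adjusted p = 0.00942) and without the low-count filter (-0.40, adjusted p = 0.00355). Tsc22d3 (-1.48 ± 0.15), Lag3 (-0.45 ± 0.14), Socs3 (-1.0 ± 0.17), Bcl2 (-2.35 ± 0.15) and Lilrb4 (-2.51 ± 0.15) were below it as well. For Lag3 that call was lost without Ctrl replicates 2 or 3, Dex+IL27 replicates 1 or 2 or Dex replicate 3 (edgeR adjusted p = 0.0613 to 0.0856). Tcf7, where both agents together gave less than either, had an interaction of -1.36 ± 0.34. For Fkbp5 (0.09 ± 0.13, adjusted p = 0.677) and Tnf (0.43 ± 0.28, adjusted p = 0.277) edgeR found no departure past the threshold.

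**Figure D5:**
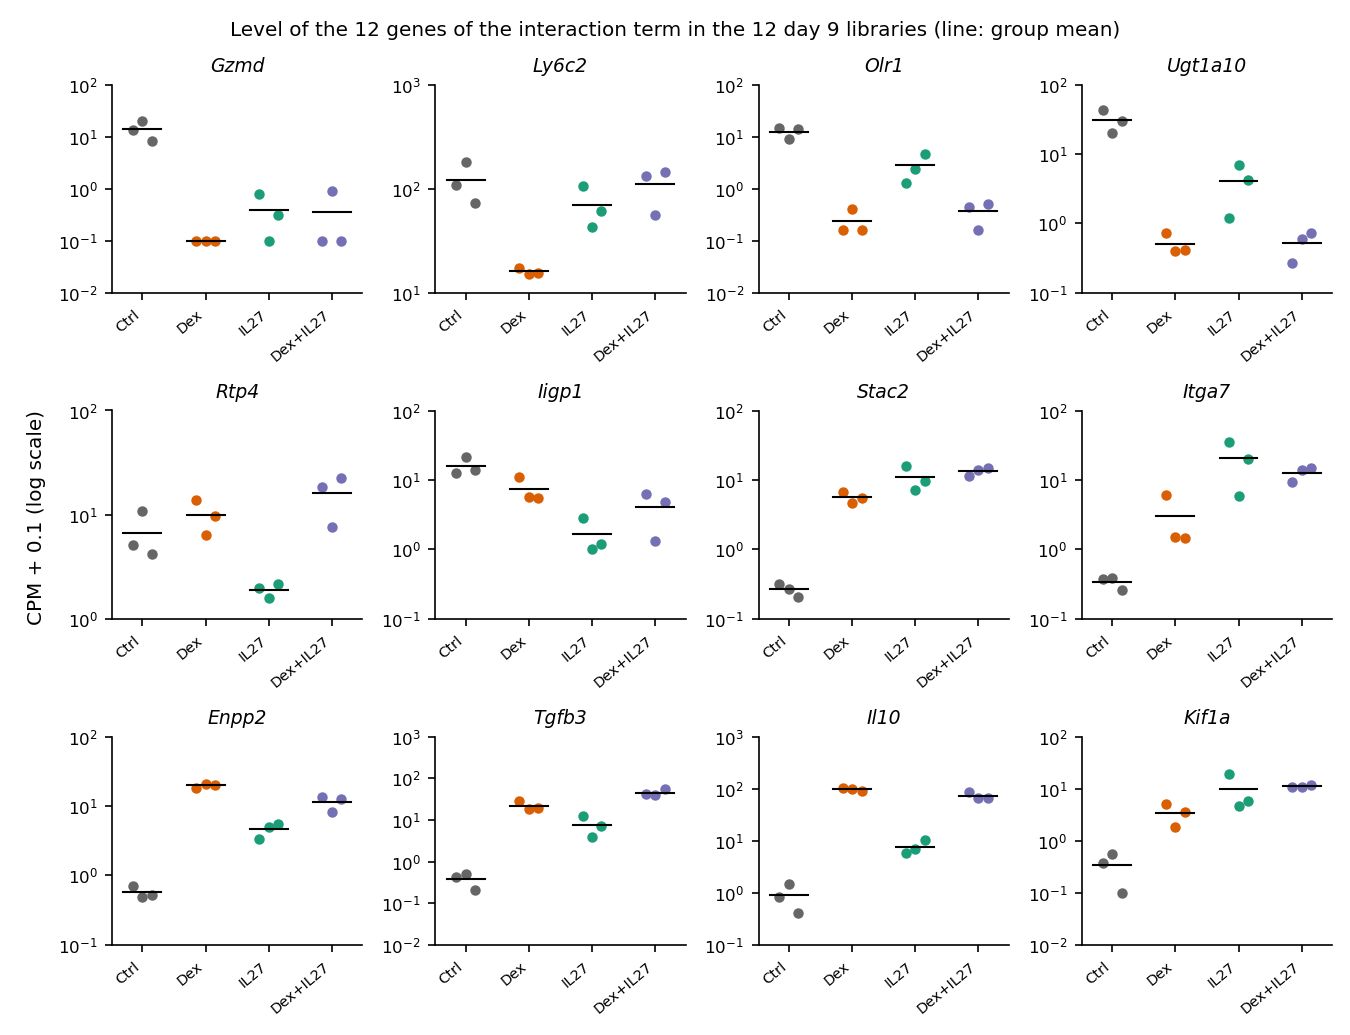
CPM plus 0.1 on a log scale in the 12 day 9 libraries for the 6 genes highest and the 6 lowest in the interaction term, with 1 point per library and a line at the group mean. By group mean, Stac2, Itga7, Enpp2, Tgfb3, Il10 and Kif1a are lowest in Ctrl. Rtp4 (1.80 CPM) and Iigp1 (1.58 CPM) are lowest in IL27.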

How the data were processed

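The authors deposited 1 table of estimated counts (RSEM) and 1 of FPKM values, each with 23366 genes and 24 libraries. TopHat, RSEM, DESeq and mm9 are named in the submitters' processing notes, without versions or roles, and whether counting used strand is not given in the sources used here. Gene symbols are those of the deposited tables. Reads were amplified and carry no molecular identifiers, so counting intervals cover counting error only.

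For the tests, the 12 libraries of day 9 entered 1 quasi-likelihood fit in edgeR 4.0.16 under R 4.3.3, on rounded counts with TMM factors and a prior count of 0.125. Tests were two-sided. The filterByExpr filter (minimum count 10, minimum total 15) left 12320 genes. The 4 contrasts were Dex+IL27 against Ctrl, Dex and IL27, and the Dex by IL27 interaction. Benjamini-Hochberg adjusted p under 0.05 counted as passing. Dex+IL27 against Ctrl, Dex and IL27 share libraries, so they are not independent.

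The comparison, the 28 gene lists (21 of pathways, 7 of cell markers, 576 entries) and the rules were chosen with earlier results of these data known. The rule for named genes took 24 fixed genes, the 4 or fewer members with the lowest p in each pathway list, the 12 largest rises and falls (mean of at least 10 CPM in a group, no overlap), the 8 highest above and lowest below all 3 other groups, and the 6 highest and lowest interaction values. Other list members named were chosen after their values were seen. The alternatives tried were scaling by DESeq2 size factors within edgeR, library totals only, no low-count filter, leaving out Rn45s, the Wald test of DESeq2 1.42.0, limma 3.58.1 on log2 of FPKM plus 1 or 0.1, or plus 1 without a filter, only the groups compared, all 24 libraries, a block for the replicate number, and leaving out each library by itself. The 12 day 3 libraries were not used in the main fit.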

Additional observations from a re-analysis of the deposited data

Results flagged for a closer look

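The values here are interaction terms: the change with both agents minus the sum of the changes with each, on the log2 scale, from the 4 day 9 groups. They were picked as the 6 highest and 6 lowest that passed the test, so their size is a description.

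Above the sum were Gzmd (10.69 ± 2.41), Ly6c2 (3.58 ± 0.54), Olr1 (3.06 ± 1.04), Ugt1a10 (3.01 ± 1.06), Rtp4 (2.58 ± 0.60) and Iigp1 (2.48 ± 0.68). The Gzmd value is no measure of size, since that granzyme gene was at 0 counts in the Dex libraries and at 0.297 and 0.264 CPM in IL27 and Dex+IL27, beside 13.7 CPM in Ctrl. Without Dex+IL27 replicate 2 it was 5.50 and no longer passed. Other calls changed too: Ugt1a10 was lost in 8 of the fits that left out 1 library (adjusted p = 0.0522 to 0.185), with library totals only (0.0521) and with all 24 libraries (0.0518), Olr1 in 7 (0.0523 to 0.148) and Iigp1 without Dex+IL27 replicate 1 (0.0502). Ly6c2, a surface protein of memory and effector CD8+ T cells with near-identical relatives, was at 111 CPM with both agents and 121 CPM in Ctrl, beside 16 CPM with Dex and 70.0 CPM with IL27. Its level with both agents was not shown to differ from Ctrl (-0.12 ± 0.35, edgeR adjusted p = 0.776), and it was above Dex by 2.80 ± 0.40. Rtp4, an interferon-stimulated gene, was at 6.63, 9.84, 1.80 and 16 CPM in Ctrl, Dex, IL27 and Dex+IL27, and Iigp1 at 15.9, 7.30, 1.58 and 4.03 CPM in the same order. Rtp4 overlapped between Ctrl and Dex+IL27, and that call was lost without Dex+IL27 replicate 3 (0.97, adjusted p = 0.059).

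Below the sum were Stac2 (-4.71 ± 0.52), Itga7 (-4.27 ± 1.07), Enpp2 (-4.05 ± 0.36), Tgfb3 (-3.71 ± 0.63), Il10 (-3.68 ± 0.39) and Kif1a (-3.61 ± 0.93). With limma on log2 of FPKM plus 1, those of Tgfb3, Itga7 and Kif1a were -0.61, -1.02 and -0.27 and did not pass (adjusted p = 0.17, 0.167 and 0.545), and that of Kif1a did not pass on FPKM plus 0.1 (-1.53, adjusted p = 0.0962). All 6 were under 1 CPM on average in Ctrl and rose with each agent. Enpp2, the enzyme autotaxin that makes lysophosphatidic acid, was at 0.474, 19.7, 4.53 and 11.2 CPM in that order, lower with both than with Dex (-0.81 ± 0.20).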

How the results depend on the processing

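The counts of genes that passed were within 1.5 times in every alternative fit for all 4 comparisons. Outside the fits that left out 1 library they ranged from 7617 to 8521 against Ctrl, 3543 to 4368 against Dex, 2300 to 3765 against IL27 and 2929 to 3946 for the interaction. With 1 library left out the ranges were 7722 to 7941, 2780 to 3542, 2161 to 3964 and 2881 to 3571, with 471 to 1028 genes above and 712 to 1288 below all 3 other groups. Same-numbered libraries of Ctrl and Dex+IL27 deviated with correlations of -0.10 to -0.04, and those of Dex and IL27 with -0.03 to 0.23. With 3 libraries a group, these values cannot show whether the numbers pair the samples. With the replicate block 8135, 3882, 3197 and 3443 genes passed. Calls were then lost for Csf1 against Ctrl (edgeR adjusted p = 0.0511), Prf1 against IL27 (0.0522) and the interaction of Ugt1a10 (0.0636), with no other change among the genes refitted. For 219 genes against Ctrl, 3707 alternative values held 39 lost calls, 3 gained calls and 4 changes of sign, in 14 genes.

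Changes of sign were in differences that had not passed, and their cause was not tested. With each library left out in turn, the log2 differences ranged from -0.10 to 0.03 for Nr3c1 against Dex, -0.67 to 0.29 for Ifng against Dex, -0.07 to 0.02 for Mki67 against IL27, -7.13 to 0.00 for Il2 against IL27, -0.39 to 0.28 for Ly6c2 against Ctrl and -0.15 to 0.03 for Cd8b1 against Ctrl. Interactions ranged from -0.01 to 0.18 for Fkbp5, -0.16 to 0.00 for Il27ra, -0.08 to 7.05 for Il2 and -0.33 to 0.80 for Eomes. With limma on log2 of FPKM plus 1, the interactions of Il2 (3.35, adjusted p = 3.0e-04) and Eomes (1.19, 0.00182) passed. In edgeR, Il2 against IL27 passed without the low-count filter (-6.56, adjusted p = 1.3e-06) and without IL27 replicate 1 (0.0144) or 2 (0.0258). The interaction of Maf was -2.02 ± 0.86 in edgeR (adjusted p = 0.0962), -2.0 without the low-count filter (0.0297) and -2.32 without IL27 replicate 2 (0.0279). With limma it was 0.43 on log2 of FPKM plus 0.1 (adjusted p = 0.55) and 1.21 on FPKM plus 1 with or without the filter (8.4e-04 and 0.00238). On FPKM plus 1, Kmo lost its calls against Dex (0.136) and IL27 (0.105), Eomes lost its calls against Dex (0.0763) and IL27 (0.301), as did Il3 (0.116 and 0.177) and the interactions of Tgfb3, Itga7 and Kif1a (above). Without the filter there, calls were also lost for Tbx21 (0.0723), Cdkn2c (0.0505), Cd22 (0.123) and Rtp4 (0.0518) against Ctrl, Socs3 against IL27 (0.0519), and the interactions of Prdm1 (0.0679), Lag3 (0.0711), Rtp4 (0.0566) and Iigp1 (0.0522). With 3 libraries a group, genes under about 1 CPM rest on few counts.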
